A study of Mus musculus with 6 samples.

Results

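Smarca1, Zfp280d, Syncrip, Mbnl1, Zfp608 and Bcl11a were chosen by their low array signal in control KH2 mouse embryonic stem cells given doxycycline, compared with the same cells without it. They are 6 of the 8605 named genes that could be tested on these arrays, and 9 of the 25697 probes on an array read them. They were selected on the largest falls between the KH2 array without doxycycline and the KH2 array with it, so that difference is given below as a description, with no test. The other arrays were not used in the choice, and they show how 2 further lines compare. Of the 9 probes, 7 were detected on at least 2 of the 6 arrays and were tested, at least 1 for each gene. The other 2 were detected on no array.

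The study compared mouse embryonic stem cells that carry a doxycycline-inducible Sox17, an endoderm transcription factor, with control KH2 cells, on 6 bead arrays of 1 chip. The groups were KH2_untreated and KH2_dox (n = 1 array each, the control line without and with the drug) and Sox17_untreated and Sox17_dox (n = 2 arrays each, from 2 independently derived inducible lines, called line 1 and line 2 here). Doxycycline was given at 1 µg/mL for 5 days, and all cells were grown in serum and LIF without feeder cells. Each inducible line counts as 1 sample a group. KH2 is known as a line that carries the reverse tetracycline transactivator, the protein that doxycycline activates, so the KH2 pair holds the drug without an inducible Sox17. The labels do not say whether the inducible lines were made from KH2.

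The 6 genes work in the nucleus or on RNA. Smarca1 encodes the SNF2L ATPase of ISWI complexes, which slide nucleosomes. Bcl11a encodes a zinc finger repressor, best known for silencing fetal globin genes, that works with the NuRD complex and is also a subunit of BAF chromatin complexes. Zfp280d and Zfp608 encode zinc finger proteins. Syncrip encodes hnRNP Q, which binds messenger RNA, and Mbnl1 encodes a muscleblind protein that directs alternative splicing. Doxycycline is a tetracycline, a class of drugs that can also inhibit mitochondrial translation.

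The promoters of 3 members are shown because the members took different courses across the lines. Smarca1 and Zfp280d read lower with doxycycline in all 3 lines, as did Mbnl1 and Syncrip, with Syncrip nearly level in line 1. Bcl11a was detected only in KH2 and in untreated line 1. The sequences are the 250 bases before the transcript start in RefSeq, build GRCm38.p6, 5′ to 3′ on the gene's strand. Capitals mark the GC box (GGGCGG) and the CCAAT box (CCAAT), searched on both strands with the TATA box (TATAAA) and a SOX motif (ACAATG or ACAAAG).
Smarca1 (chrX:47892614-47892863, minus strand): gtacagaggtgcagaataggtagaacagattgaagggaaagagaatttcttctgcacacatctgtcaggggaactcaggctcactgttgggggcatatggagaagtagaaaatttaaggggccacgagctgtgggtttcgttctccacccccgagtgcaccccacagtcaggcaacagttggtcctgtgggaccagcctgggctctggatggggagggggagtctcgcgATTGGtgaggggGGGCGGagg
Zfp280d (chr9:72274638-72274887, plus strand): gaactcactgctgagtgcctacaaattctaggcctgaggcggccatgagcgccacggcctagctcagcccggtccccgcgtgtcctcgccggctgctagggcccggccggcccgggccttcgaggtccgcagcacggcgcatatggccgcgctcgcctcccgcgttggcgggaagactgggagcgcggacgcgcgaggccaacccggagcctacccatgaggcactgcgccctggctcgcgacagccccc
Bcl11a (chr11:24080445-24080694, plus strand): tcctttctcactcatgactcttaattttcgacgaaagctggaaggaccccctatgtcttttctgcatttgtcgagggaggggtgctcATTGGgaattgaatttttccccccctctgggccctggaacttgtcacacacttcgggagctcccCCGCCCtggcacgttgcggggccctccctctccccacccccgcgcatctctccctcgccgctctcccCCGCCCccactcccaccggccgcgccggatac
The Smarca1 window held 1 GC box and 1 CCAAT box, the Bcl11a window 2 GC boxes and 1 CCAAT box, and the Zfp280d window neither. Of 32851 RefSeq promoter windows of this length, 32.7% held a GC box and 33.8% a CCAAT box. No window of the 3 held a TATA box (12.4% of all windows) or the SOX motif (25.2%). The GC content was 56.4% for Smarca1, 72.4% for Zfp280d and 62.0% for Bcl11a, against a median of 52.4% over all windows. Windows of Syncrip (1 start) and Mbnl1 (2 starts) were searched too and are not shown, and Zfp608 was not searched. The first Mbnl1 window held 2 overlapping TATA box matches and 2 CCAAT boxes, at 38.0% GC. The second Mbnl1 window (73.6% GC) and that of Syncrip (72.8%) held GC boxes and neither of these. None of them held the SOX motif. These matches are letters in a window and show no binding.

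Between 11219 (KH2_dox) and 11957 (untreated line 1) probes were detected on an array, and raw medians ran from 108.9 (untreated line 2) to 128.7 (KH2_dox) intensity units. KH2_dox thus had the fewest detected probes and the highest raw median, and the part of this in the KH2 differences was not tested. All 9 embryonic stem cell markers on the list were detected on all 6 arrays, with a summed linear signal of 64719 to 78035, to which Dppa5a added most. The summed signal of the 4 tested primed epiblast markers, of 6, was 29584 and 20377 in KH2 without and with doxycycline and 16105 to 22035 in the inducible lines. Most of that sum was Dnmt3b (14.74 and 14.21 in log2 signal in KH2), so it says little of the other markers. For 3 of 6 listed neuroectoderm markers it was 193 to 356. Of 10 primitive endoderm markers 7 were tested. Their summed linear signal was 3867 and 4726 in KH2 without and with doxycycline, 2926 and 7238 in the untreated lines 1 and 2, and 7071 and 11416 in the same lines with doxycycline. Sox7, Foxa2 and Sox17 were too dim to test. The brighter Sox17 probe was detected only on the array of line 2 with doxycycline. The summed signal of the 7 primitive endoderm markers rose with doxycycline in both inducible lines, but not every marker rose. In line 1 Dab2 had a log2 difference of -0.07, and Gata4 was undetected with the drug. The part of these markers in the values below was not tested. Of 8 fibroblast markers 4 were tested, with a summed signal of 1580 and 1697 in KH2, 1048 and 1736 in the untreated lines and 1340 and 2302 in the induced lines. In bulk cells, less RNA per cell and fewer cells of a type cannot be told apart.

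Smarca1 had the lowest difference of all 12373 tested probes in KH2. Its probe (ILMN_1253650) read 8.13 without and 6.39 with doxycycline in KH2, 8.10 and 7.22 in line 1, and 7.23 and 6.18 in line 2, in normalised log2 signal. In each line the array with doxycycline was the lower one, and the lowest of all arrays was line 2 with the drug. The log2 difference, doxycycline minus untreated, was -1.74 in KH2, -0.88 in line 1 and -1.05 in line 2, or 3.34-fold, 1.83-fold and 2.07-fold lower. The standard error between beads of the probe was 0.16 for the KH2 difference, 0.15 for line 1 and 0.17 for line 2, which covers the spread on an array and not that between cultures. Only 1.66% of tested probes in line 1 and 0.242% in line 2 had a lower difference.

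Zfp280d had the same order of arrays within each line. Its probe (ILMN_2841334) read 7.63 and 5.99 in KH2, 7.70 and 7.07 in line 1, and 7.16 and 6.18 in line 2, untreated first. KH2 had the lowest difference of the 3 lines, and there the level with doxycycline lay just above the detection limit of that array, 5.83. The differences were -1.64 in KH2, -0.62 in line 1 and -0.98 in line 2 (bead standard errors 0.17, 0.12 and 0.17). In line 1, 4.89% of tested probes had a lower difference, and in line 2, 0.388%.

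**Figure D1:**
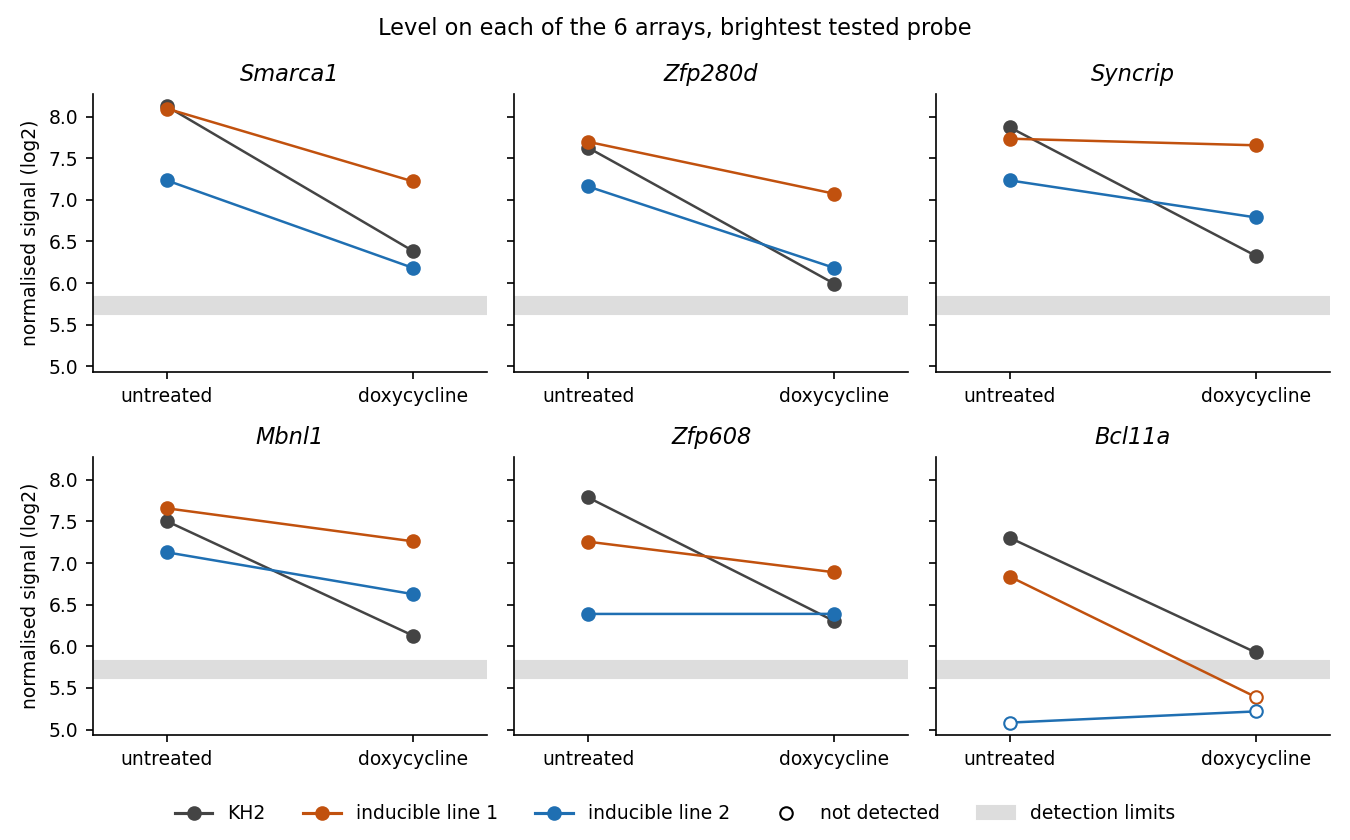
Normalised signal (log2) of the brightest tested probe of each gene on the 6 arrays, without and with doxycycline, 1 line of colour for each cell line. Open circles are arrays where the probe was not detected, and the grey band spans the detection limits of the arrays (5.62 to 5.83). Smarca1, Zfp280d and Mbnl1 slope down in all 3 lines, and Syncrip is nearly level in line 1. Zfp608 is level in line 2, and Bcl11a is undetected on both arrays of line 2.

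Syncrip was read by 3 probes, of which the brightest (ILMN_2634248) gave 7.87 and 6.33 in KH2, 7.73 and 7.65 in line 1, and 7.23 and 6.79 in line 2. Here KH2 stood apart, since the difference was -1.54 in KH2, -0.08 in line 1 and -0.45 in line 2, and that of line 1 was smaller than its bead standard error of 0.13. A second probe (ILMN_2709935) read 6.84 and 5.94 in KH2, 6.17 and 6.06 in line 1, and 6.12 and 5.62 in line 2, where the array with doxycycline was not above detection. It had the same direction, nearer to 0 in KH2 (-0.90) and of like size in line 1 (-0.11), and its level was at least 1.34-fold lower in line 2. The third probe (ILMN_2595017) was detected on no array and gave no fold.

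Mbnl1 had 1 readable probe (ILMN_2766253), with 7.51 and 6.13 in KH2, 7.66 and 7.26 in line 1, and 7.13 and 6.63 in line 2. The drug array was lower in each line, by a difference of -1.38 in KH2, -0.40 in line 1 and -0.50 in line 2 (bead standard errors 0.21, 0.14 and 0.21). The second Mbnl1 probe (ILMN_2724124) was detected on no array, so no other probe bears on the Mbnl1 value. The positions of the probes in their transcripts are not given in the sources used here.

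Zfp608 (ILMN_2939367) read 7.79 and 6.30 in KH2, 7.26 and 6.89 in line 1, and 6.39 and 6.39 in line 2. Line 2 already stood, untreated, near the level of KH2 with the drug, and its arrays had the same level to 2 decimals. The difference was -1.49 in KH2, -0.37 in line 1 and 0.0009 in line 2, with a bead standard error of 0.16 in both inducible lines.

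Bcl11a (ILMN_2712044) read 7.30 and 5.93 in KH2, 6.84 and 5.39 in line 1, and 5.08 and 5.22 in line 2. It was detected on both KH2 arrays and in untreated line 1, and on none of the other 3 arrays. The KH2 difference was -1.38 (bead standard error 0.21). In line 1 the level with doxycycline was at least 2.20-fold lower, taken against the detection limit of that array, and the normalised values themselves differed by -1.45. For line 2, below detection on both arrays, no fold is given.

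**Figure D2:**
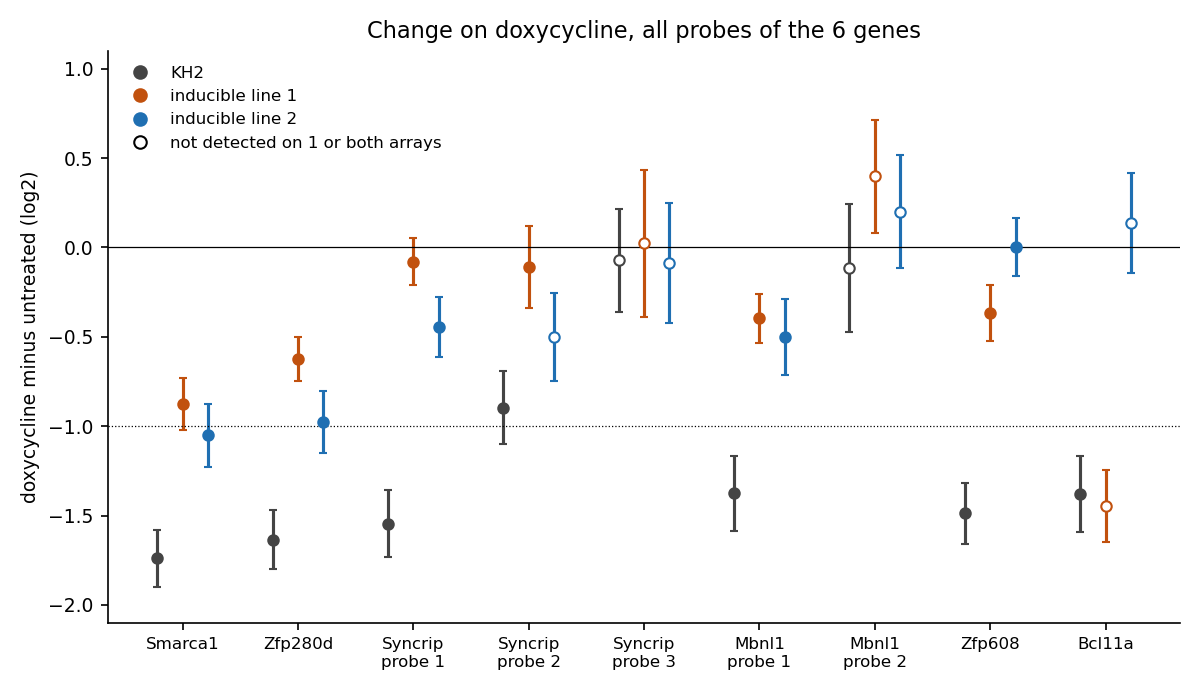
Difference between doxycycline and untreated (log2) for all 9 probes of the 6 genes in each cell line, with bars for the standard error between beads of a probe on the array. Open points had 1 or both arrays below detection, and the dotted line marks 2-fold lower. KH2 lies below -1 for the brightest probe of each gene, and these probes lie between -1.45 and 0.13 in the inducible lines.

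The brightest probes of all 6 genes were at least 2-fold lower in KH2, as 1.55% of all tested probes were (192 of 12373) and 2.43% of the 2968 tested probes whose mean level lay within the range of the members (5.96 to 7.27). Nothing is read from that count, since it chose the genes. At least 2-fold higher in KH2 were 60 probes (0.485%). By brightest probe the members held ranks 1, 4, 5, 6, 8 and 9 in the order of KH2 differences, lowest first, of the 8605 genes. The genes between them, Nfkbiz, Slc6a15 and Zfp871, were not detected in KH2 with doxycycline. Nfkbiz, a nuclear regulator of NF-kappaB, was at least 1.94-fold lower in KH2. The amino acid transporter gene Slc6a15 was at least 1.77-fold lower and the zinc finger gene Zfp871 at least 1.69-fold. The member nearest to 0 was Mbnl1 (-1.38), and the next gene, Txlng, was at -1.36 in KH2, 0.56 in line 1 and -0.60 in line 2.

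The inducible lines had not been used to choose the genes. With doxycycline all 6 members were lower in line 1, where 51.1% of tested probes were, and 4 of 6 were lower in line 2, where 51.2% were. In both lines 4 of 6 were lower, against 31.3% of all 8605 genes. A difference of -0.5 or below in both lines was seen for 2 of 6, Smarca1 and Zfp280d, and for 1.41% of tested probes. At least 2-fold lower were 1 member in line 1 (Bcl11a, against 1.03% of tested probes) and 1 in line 2 (Smarca1, against 0.356%). In both lines 0 members were, against 0.097%. These counts depended on the scale. Without background modelling Bcl11a was at -0.72 in line 1 and Smarca1 at -0.60 in line 2. With an offset of 50 they were at -0.97 and -0.79. In both settings 0 members were 2-fold lower in either line. In the authors' values the count was 1 in line 1 and rose to 2 in line 2, Smarca1 (-1.20) and Zfp280d (-1.11). Without background modelling Zfp280d was at -0.42 in line 1 and -0.55 in line 2, which left 1 of 6, Smarca1, at -0.5 or below in both. With the arrays centred on their medians Syncrip was at 0 in line 1, and 3 of 6 members were lower in both lines. The median difference of the members was -0.51 in line 1 and -0.47 in line 2, beside -1.52 in KH2. Over all tested probes the medians were -0.01, -0.01 and 0.03. The standard deviation of the differences over all tested probes was 0.42 in KH2, 0.40 in line 1 and 0.32 in line 2.

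None of the members passed the test between the Sox17_dox and Sox17_untreated arrays. With limma, no tested probe had an adjusted p below 0.05 (0 probes, 0%). At an unadjusted p below that value there were 528 (4.27%), and no member was among them. Trend and robust moderation also called 0. Smarca1 had a mean difference of -0.96 ± 0.42 (SE, n = 2 arrays against 2), with a limma p of 0.0606 unadjusted and 0.955 adjusted, and was lower in 2 of 2 lines. Zfp280d had -0.80 ± 0.35 and was lower in both lines. Mbnl1 had -0.45 ± 0.30, the brightest Syncrip probe -0.26 ± 0.34 and Zfp608 -0.18 ± 0.34. The limma adjusted p of these probes was 0.955 to 0.979. Bcl11a was undetected in both induced lines and detected in 1 of the untreated lines, line 1. Its fitted value was -0.66 ± 0.53, and the fall in it came from line 1 alone. Bcl11a gave 0.22 when the untreated array of line 1 was left out.

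With the line as a block, which takes out the level of each line, Smarca1 had -0.96 ± 0.17 (limma adjusted p = 0.127) and Zfp280d -0.80 ± 0.18 (adjusted p = 0.189). The blocked fit had 1 residual degree of freedom, so its standard errors lean more on the spread over all probes than on each gene's own. Before adjustment 3 of 6 members, Smarca1, Zfp280d and Mbnl1, were below 0.05 in the blocked fit, where the fit without the block had 0. Of all tested probes 13.6% were below it too. After adjustment that fit called 1 probe in all (0.00808%), and it was no member. These adjusted values leave each member short of the threshold with 2 lines, which does not show that the lines did not respond.

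**Figure D3:**
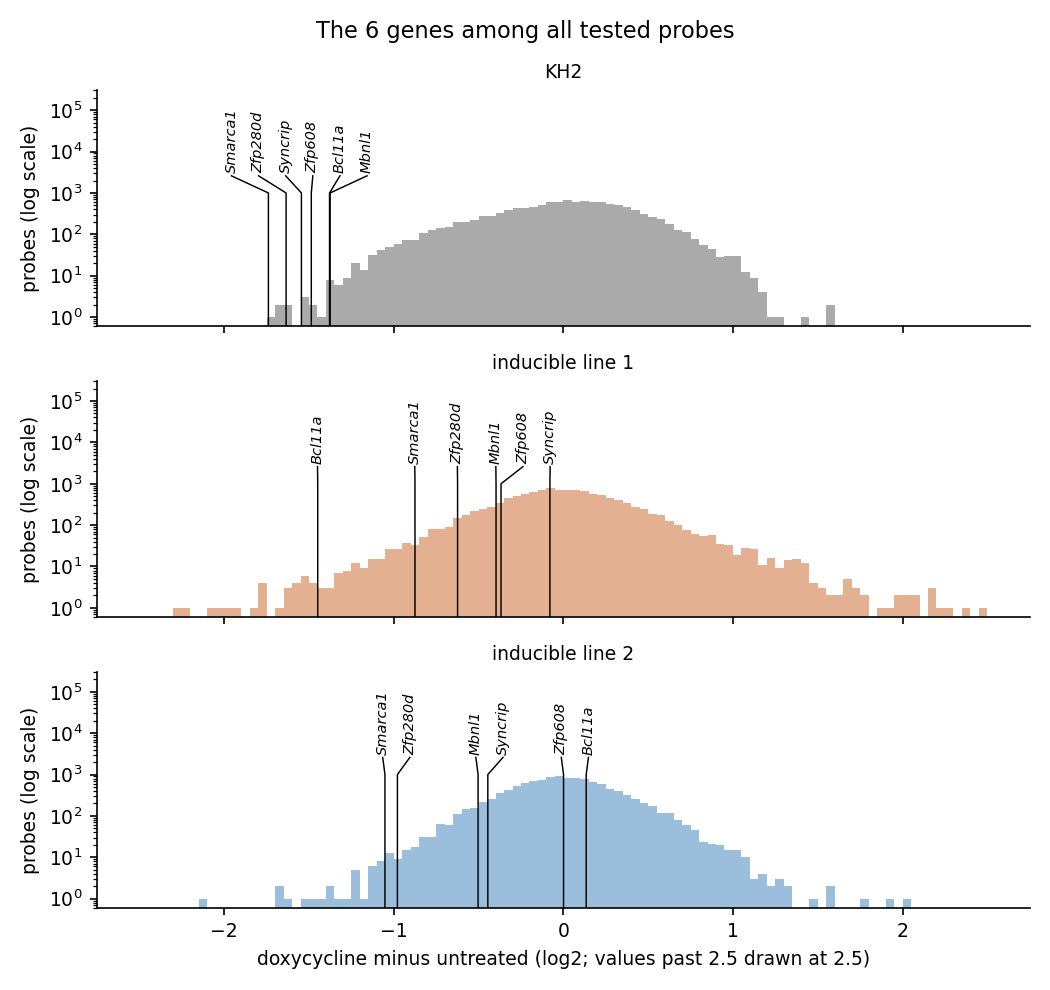
Number of tested probes (log scale) by the difference between doxycycline and untreated (log2) in KH2, line 1 and line 2, with the brightest tested probe of each gene marked. All 6 genes lie at the left edge in KH2, where they were chosen. In line 2 Smarca1 and Zfp280d lie far to the left and Zfp608 and Bcl11a near 0.

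The genes come from a wider set with low KH2 values. Of the 192 probes at least 2-fold lower in KH2, 64.6% were lower in both inducible lines, against 31.5% of all tested probes. A difference of -0.5 or below in both was seen for 7.29% of them. At least 2-fold lower were 2.08% in line 1 and 2.6% in line 2. Their medians were -0.18 in line 1 and -0.39 in line 2. Smarca1, Zfp280d and Mbnl1 were below these medians in both lines, Zfp608 and Bcl11a only in line 1, and Syncrip only in line 2.

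Levels before treatment also differed between the lines. Untreated line 2 read below untreated KH2 for all 6 members. The differences ran from -0.38 (Mbnl1) to -1.40 (Zfp608), with Smarca1 at -0.89, and Bcl11a, undetected in untreated line 2, was at least 3.14-fold lower. Untreated line 1 was closer to KH2, from -0.53 (Zfp608) to 0.15 (Mbnl1), with Smarca1 at -0.03. With doxycycline, line 1 read above KH2 for 5 of the 6, by 0.59 (Zfp608) to 1.33 (Syncrip), and Bcl11a was undetected in line 1. Line 2 with doxycycline was within 0.50 of KH2 with doxycycline for Smarca1 (-0.20), Zfp280d (0.19), Syncrip (0.46), Mbnl1 (0.50) and Zfp608 (0.09). These differences share the KH2 arrays on which the genes were chosen, so they are given without a test. That choice favours genes high in untreated KH2 and low in KH2 with doxycycline. The share of all probes with the same directions was not counted, so nothing is read from the counts of members here.

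Across the 6 arrays the levels of Smarca1, Zfp280d, Syncrip, Mbnl1 and Zfp608 correlated with each other at Pearson r from 0.786 to 0.976, and Bcl11a with the others at r from 0.492 (Mbnl1) to 0.863 (Zfp608). The KH2 arrays that chose the genes are among the 6, and no p is given. The mean profile of the members, centred on each gene's mean, was 0.82 and -0.70 in KH2, 0.67 and 0.04 in line 1, and -0.17 and -0.65 in line 2, untreated first. Among 1671 other genes whose level ranged over at least 1 log2 unit, the 6 most like this profile were Skil, Eloc, Erich5, Mbtd1, Ifngr2 and Prpf38b. Skil, a corepressor of TGF-beta signalling, had r = 0.995 and differences of -1.21 in KH2, -0.65 in line 1 and -0.33 in line 2. Mbtd1, a chromatin reader gene, had r = 0.993 with -1.24, -0.63 and -0.57. Ifngr2, a chain of the interferon gamma receptor, had r = 0.991 with -0.88, -0.41 and -0.38. Erich5 had r = 0.994 with -1.17, -0.58 and -0.32, and the splicing factor gene Prpf38b had r = 0.980 with -0.90, -0.54 and -0.40. Eloc, the elongin C gene, had r = 0.994 and was at least 1.62-fold lower in KH2, where it was undetected with the drug.

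**Figure D4:**
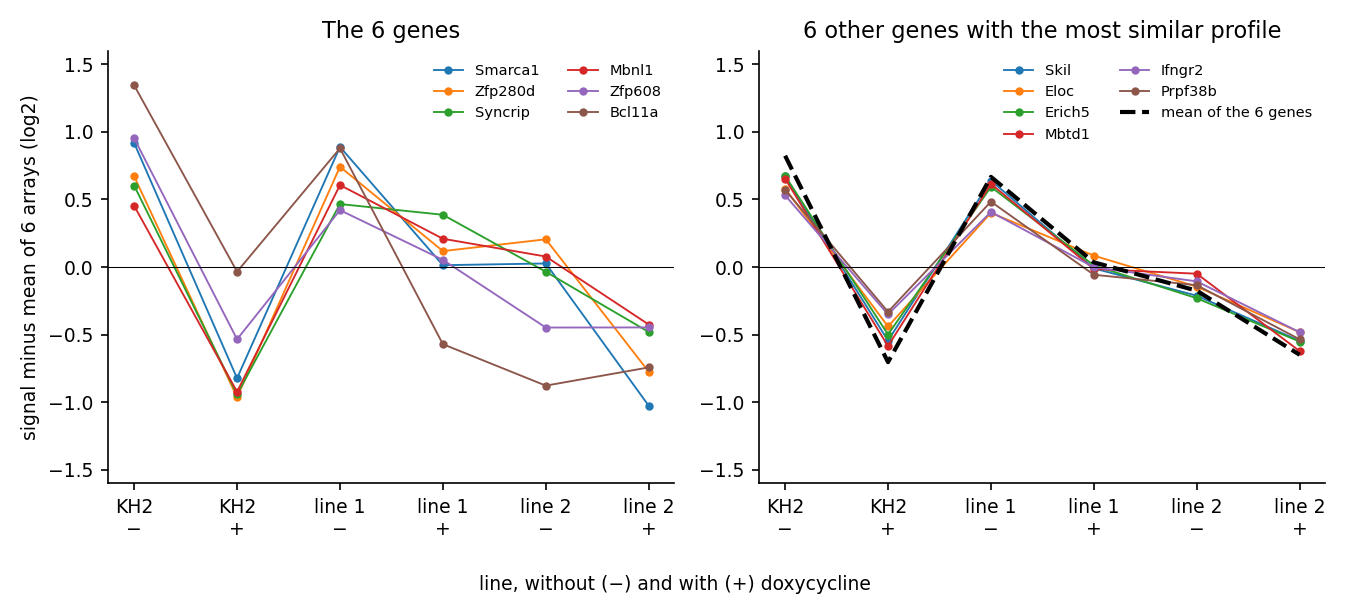
Normalised signal minus the gene's mean over the 6 arrays (log2), by cell line without and with doxycycline, for the 6 genes (left) and the 6 other genes whose profile was most like their mean (right, dashed line). Bcl11a departs from the other members most in KH2 with doxycycline, in line 1 with doxycycline and in untreated line 2.

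The members were chosen as the lowest genes in KH2, so other genes, their paralogs included, lie nearer to 0 there by that choice. Of 8 listed paralogs, 7 were on the array and 5 were tested. In KH2 0 of these 5 were at least 2-fold lower, against 1.52% of genes, or at least 2-fold apart either way, against 2.01%. All 5 were lower there by some amount, against 47.9% of genes, with a median of -0.565. The muscleblind gene Mbnl2 read -0.65 in KH2 but 0.37 and 0.29 in lines 1 and 2, and its other probe -0.52, 0.24 and 0.46. Zfp280c gave -0.66, -0.28 and -0.10, Zfp280b -0.26, -0.23 and 0.26, and Zfp609, the relative of Zfp608, -0.10, -0.25 and 0.02. The 3 probes of Hnrnpr, the relative of Syncrip, and the probe of Mbnl3 were detected on no array.

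Bcl11b, a zinc finger gene needed for T cell development, was detected on the same 3 arrays as its paralog Bcl11a. Its probe read 7.20 and 6.63 in KH2, 7.25 and 5.58 in line 1, and 5.40 and 5.16 in line 2. Both genes were thus above detection in KH2 and untreated line 1 and below it in line 1 with doxycycline and throughout line 2. The Bcl11b difference was -0.56 in KH2, and in line 1 the level with doxycycline was at least 2.92-fold lower. Bcl11a and Bcl11b correlated at r = 0.946 over the 6 arrays, which share the low levels of line 2. Between the inducible groups the fitted value of Bcl11b was -0.96 ± 0.56, with a limma adjusted p of 0.955.

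The list of ISWI complex genes, which was not limited to complexes built on Smarca1, held 7 other tested genes. By normalised values 1 of them, Rsf1, was at least 2-fold lower in KH2 (1.52% of genes), and since Rsf1 was undetected with the drug its level was at least 1.26-fold lower. The highest was Pole3, a histone-fold subunit, at 0.34. The median of the 7 was -0.17 in KH2, -0.32 in line 1 and -0.25 in line 2, against 0.02, -0.01 and -0.0037 over all genes.

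Among 14 other tested BAF and PBAF genes 0 were at least 2-fold lower in KH2, and 11 were lower by some amount, against 47.9% of genes, with a median of -0.31. At least 2-fold lower in line 1 was 1, Bcl11b (1.21% of genes), and in line 2 0 (0.43%). In line 1 the median was 0.02, and in line 2 it was -0.03. The lowest in KH2 was Arid2, a PBAF subunit gene, at -0.92 (0.02 in line 1 and 0.07 in line 2), and the highest was the subunit gene Smarcd3, at 0.50. The NuRD list, the corepressor that works with Bcl11a, had 10 tested genes, of which 0 were at least 2-fold lower in KH2 (median -0.21). Gatad2b was lowest by normalised value (-0.73), but it was undetected with the drug, so its level was at least 1.26-fold lower. Hdac2, detected on all 6 arrays, was at -0.63 in KH2. By other probes, 1 of the 3 for the ATPase gene Chd4 (ILMN_2697652) was at -1.13 in KH2, -0.65 in line 1 and -0.16 in line 2, while its brightest was at -0.26 in KH2. The highest gene of the NuRD list was Mta3, at 0.17.

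Among RNA-binding proteins, 15 other tested hnRNP genes had a median of -0.25 in KH2, -0.20 in line 1 and -0.05 in line 2. By brightest probe 1, Hnrnph1, was at least 2-fold lower in KH2 (-1.05, with -0.30 in line 1 and -1.09 in line 2), and the highest was Hnrnph3 (0.20). The other 4 Hnrnph1 probes gave -0.84 to -1.33 in KH2, -0.25 to 0.12 in line 1 and -0.74 to -0.04 in line 2. Hnrnpdl was at -0.73 by its brightest probe, and its other probe (ILMN_2690061) was at -1.27 in KH2, -0.25 in line 1 and -0.48 in line 2. By brightest probe, 10 of the 15 hnRNP genes were lower by some amount in all 3 lines, against 18.2% of genes. The regulated splicing factor list had 14 other tested genes with a median of -0.22 in KH2, and 0 of them were at least 2-fold lower. The lowest was Celf2, an RNA-binding regulator of splicing, at -0.99 in KH2, -0.32 in line 1 and -0.26 in line 2. The highest was the epithelial splicing gene Esrp2 (0.56), and 3 of the 14 were lower in all 3 lines. No gene of these lists passed the limma test between the inducible groups.

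The size of the KH2 differences depended on how background was handled. The members' raw signal with doxycycline was 150.8 to 174.3 units in KH2, with detection p-values of 0.01 to 0.0363. Without background modelling the KH2 difference was -1.14 for Smarca1 and between -0.98 and -0.77 for the other 5, so that 1 of 6 stayed at least 2-fold lower.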

How the data were processed

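RNA of mouse embryonic stem cells was hybridised to Illumina MouseRef-8 arrays. Per the file headers, the deposited raw table gives each probe's signal as an intensity, with bead standard error, the count of beads and a detection p-value. A second deposited table gives intensity after the authors' BeadStudio processing (per the submitters' processing notes), by a method not given in the sources used here. It ranks probes as the raw table does and is linear and background-subtracted, with array medians of 25.6 to 34.1 and values below 0.

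Raw signal was corrected by normexp from the detection p-values, offset by 16, quantile-normalised and put on the log2 scale (neqc, limma 3.58.1, R 4.3.3). Tested probes had a detection p-value under 0.05 on 2 or more arrays. limma fitted a mean for each group (2 residual degrees of freedom, two-sided test, Benjamini-Hochberg adjustment). Genes stand by their tested probe of highest mean signal. Symbols follow the platform annotation, updated by Entrez number (16 unmatched, 1719 probes with no symbol). Bead errors were carried to the log2 scale over the corrected signal.

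The 6 genes and the lists were chosen with earlier results of these data known. Named were the members, listed paralogs, each list's lowest and highest gene in KH2 and those past 2-fold there, the 10 lowest genes and the 6 nearest profiles. The inducible line with no number in its label is line 1 here. Same-line arrays are paired by their labels, and over probes the difference between lines correlated at r = 0.509 between untreated and treated arrays. The fit was checked on simulated data. Beads per probe had a median of 38 to 40 an array, and the number of arrays limits precision. Alternatives were the line as a block, other background, offset, centring, filter and moderation settings, the authors' values, gene means and leaving out 1 array.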

Additional observations from a re-analysis of the deposited data

Results flagged for a closer look

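Bcl11a and Zfp608 went opposite ways on doxycycline in the inducible lines, by the sign of their normalised values. For Bcl11a the log2 difference was -1.45 in line 1 and 0.13 in line 2, which is -1.58 as line 1 minus line 2. Both line 2 arrays were below detection, so the direction there has no measured level behind it. For Zfp608 the difference was -0.37 in line 1 and 0.0009 in line 2, which is -0.37 between the lines, and the value of line 2 is well inside its bead standard error of 0.16. Neither contrast between the lines was tested, because each line has 1 array a side.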

How the results depend on the processing

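The limma test between the inducible groups called 0 probes in its main form. With the replicate block (line) it called 1, and under each of the other 13 alternatives run, among them the fits without 1 array (0 to 0), it called 0. No member was called under any alternative, the block included. The number of probes at least 2-fold lower depended on the scale. In KH2 it was 192, and 332 in the authors' values, 26 without background modelling and 61 with an offset of 50. In line 1 it was 127, against 309, 30 and 53 in that order, and 72 for probes detected on all 6 arrays. In line 2 it was 44, against 164, 8 and 14, and 24. Leaving out 1 array in turn moved the difference between the inducible groups from -1.53 to 0.22 for Bcl11a, from -0.70 to 0.17 for the brightest Syncrip probe and from -0.62 to 0.25 for Zfp608. Zfp608 was at 0.25 without the untreated array of line 1 and 0.07 without the induced array of line 2, and Syncrip at 0.17 without the latter. Smarca1 (-1.48 to -0.44), Zfp280d (-1.25 to -0.36) and Mbnl1 (-0.77 to -0.13) kept their direction. The KH2 differences of the 6 genes, by brightest probe, kept their direction in all alternatives run. These alternatives use the same KH2 arrays that chose the genes, so the kept direction adds no support. The cause of the shifts between settings was not tested. Signal over background limits what can be read, since the detection p-values of the members in KH2 with doxycycline were 0.01 to 0.0363, near the cutoff of 0.05.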

Other observations

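The marker and reference lists held some differences of a size near those of the members, in genes outside them. Otx2, a transcription factor gene of the primed epiblast, was lowest of its list in KH2, with a log2 difference of -1.26, and gave 0.88 in line 1 and 0.25 in line 2. The highest of that list in KH2 was Sfrp2, a secreted Wnt antagonist, at -0.42, with -1.08 and -0.83 in the inducible lines. By brightest probe, stem cell markers ran in KH2 from -0.54 (Sox2) to 0.35 (Utf1). The other tested Sox2 probe was at 0.09 there, and the other tested Tdgf1 probe at -0.73. Tested primitive endoderm markers, also by brightest probe, ran from Gata4, undetected with the drug, to Sparc, a matrix protein gene, at 0.44. The fibroblast list ran from -0.21 (Lox, an enzyme that links collagen, with 1.25 in line 1 and 0.39 in line 2) to 0.17 (Vim, a filament protein gene). In the neuroectoderm list Zfp521 was at least 1.23-fold lower in KH2, and Tubb3 was undetected on both KH2 arrays. The 5 housekeeping genes tested ran from -0.56 (Hprt) to 0.61 (B2m) in KH2, with a median of -0.04. No gene of these lists passed the limma test between the inducible groups.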
